A study of Mus musculus with 6 samples.

Results

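Translation initiation factor genes were taken as every row of the count table that was annotated as protein-coding, lay off the Y chromosome and had a symbol beginning with Eif. The rule found 54 genes among the 54532 listed, of which 21863 were protein-coding and off the Y chromosome. RNA-seq counts came from whole hearts of 6 male mice of C57BL/6 background aged 3 months, with 3 mice per genotype. The resistant group carried Na/K-ATPase a1r/ra2s/s, in which the α1 isoform has the low affinity for cardiotonic steroids (CTS, such as ouabain) that is usual in rodents. The sensitive group carried Na/K-ATPase a1s/sa2s/s, in which α1 was mutated to bind CTS with high affinity. Both groups carried the CTS-sensitive α2. The α1 allele was present throughout the body and not in cardiomyocytes alone, and each library held the RNA of all cell types of 1 heart. The comparison asked how initiation factor mRNA differed in hearts whose α1 Na/K-ATPase was made sensitive to CTS.

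Initiation is the step at which a ribosome is brought to an mRNA and finds its start codon. The small ribosomal subunit is loaded by eIF1, eIF1A, eIF3 and eIF5 together with eIF2, which carries the initiator tRNA in its GTP-bound form. The mRNA is recruited through eIF4E on the cap, the scaffold eIF4G and the helicase eIF4A, and the large subunit then joins with the help of eIF5B. Brakes act at both entry points, since kinases that phosphorylate eIF2 block its recycling by eIF2B, and 4E-BP proteins hold eIF4E away from eIF4G until mTORC1 phosphorylates them. Protein synthesis in the growing heart is regulated through both of these controls.

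The 6 libraries held 19309312 to 20470065 counts over the listed genes, and 14866 genes passed the filter on low counts. Levels are given below as CPM (counts relative to the sum over tested genes, with TMM factors, times 1000000), and log2 fold changes are those of the edgeR quasi-likelihood fit, as sensitive over resistant. Adjusted p-values are Benjamini-Hochberg values over all 14866 genes with a threshold of 0.05. They weigh the difference between the genotypes against the spread between these mice, which edgeR estimated with information shared across genes. Mitochondrially encoded genes took 23.9% ± 0.476 of counts in resistant and 25.4% ± 0.492 in sensitive hearts (SD, n = 3 each), and these ranges did not overlap. Cardiomyocyte markers summed to 44120 to 54763 CPM in resistant and 48557 to 52763 CPM in sensitive hearts, so the libraries held the labelled tissue. Of these 8 genes, 5 had fold changes above 0 and 3 below, and 0 passed the threshold in edgeR. The lowest log2 fold change was -0.55 for Myl7 (adjusted p = 0.0799 in edgeR). DESeq2 called 1 of the 8, lower in sensitive hearts. Among marker lists of other cell types, fold changes were below 0 for 6 of 6 macrophage, 7 of 7 smooth muscle and pericyte, 5 of 7 fibroblast and 4 of 6 endothelial genes, with 0 of these genes past the threshold in edgeR. At an unadjusted p under 0.05 there were 2, 4, 4 and 2 of them in that order, all lower in sensitive hearts. Over all tested genes, 14.5% had such a p and 7.27% were lower with it. The groups were apart for 1, 1, 3 and 2 of these genes, all lower, against 9.98% lower of all tested genes. DESeq2 called 2, 1, 1 and 0, against 3.65% of all genes with an adjusted p. Summed levels of these lists overlapped between the genotypes, at 174 to 273 against 150.1 to 184 CPM for macrophage, 942 to 1030 against 862 to 989 CPM for smooth muscle and pericyte, 1113 to 1307 against 988 to 1144 CPM for fibroblast and 878 to 1027 against 741 to 929 CPM for endothelial markers. Erythroid markers summed to 536 to 1272 against 401 to 3187 CPM, and adipocyte, lymphocyte and skeletal muscle lists had 0 genes past the threshold in either tool, 1 each at an unadjusted p under 0.05, and Ucp1 and Myh4 at 0 counts. The part of these markers and of the mitochondrial share in the differences described below was not tested. In such bulk tissue, fewer cells of a type and less RNA per cell cannot be told apart.

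Of the 54 genes, 52 passed the filter. Eif4ebp3, a minor 4E-BP, had only 3 to 8 counts per heart and was not tested. Its exons share 501 bases with the protein-coding gene AC115631.1 on the same strand, so these counts do not show that its level was low. Eif4e1b, an eIF4E relative of the oocyte, had 0 counts in every heart, which allows up to 3 counts per library. Together the 54 genes took 0.599% ± 0.0101 of all counts in resistant and 0.608% ± 0.0065 in sensitive hearts (SD, n = 3 each), and these ranges overlapped. On the CPM scale, with TMM factors, they summed to 5768, 5746 and 5982 CPM in the resistant hearts and 6128, 6153 and 6520.2 CPM in the sensitive hearts, which did not overlap.

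Levels differed widely within the family when set per kb of exon. Eif1, whose product keeps the scanning ribosome from starting at a wrong codon, had the highest level at 189 CPM per kb over the 6 hearts. It was followed by Eif4g2 at 104, Eif5a at 94.4, Eif3h at 88.7 and Eif4a2 at 83.1 CPM per kb. The kinases of eIF2 were among the low genes, from 5.23 CPM per kb for Eif2ak1 down to 1.69 CPM per kb for Eif2ak4. Among tested genes only Eif3j2 at 0.539 and Eif5a2 at 0.617 CPM per kb were lower than Eif2ak4. The order of levels within each complex is drawn in the plot of levels per kb. In the resistant hearts, the neighbours Eif2s2 and Eif2s3x, at 14.6 ± 0.548 and 14.7 ± 0.737 CPM per kb (SD, n = 3), differed by less than their spread. Within eIF2B, Eif2b5 at 20.1 CPM per kb over the 6 hearts was well above Eif2b3 at 2.07 CPM per kb. Levels per kb depend on the exon length listed for each gene, which equals the union of its annotated exons for 51 of the 54. Counts of some members are uncertain because part of their 50-base stretches occurs in other genes too. This part was 65.5% for Eif4ebp3, 34.6% for Eif2s3x, 20.3% for Eif3h and 19.2% for Eif1.

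**Figure D1:**
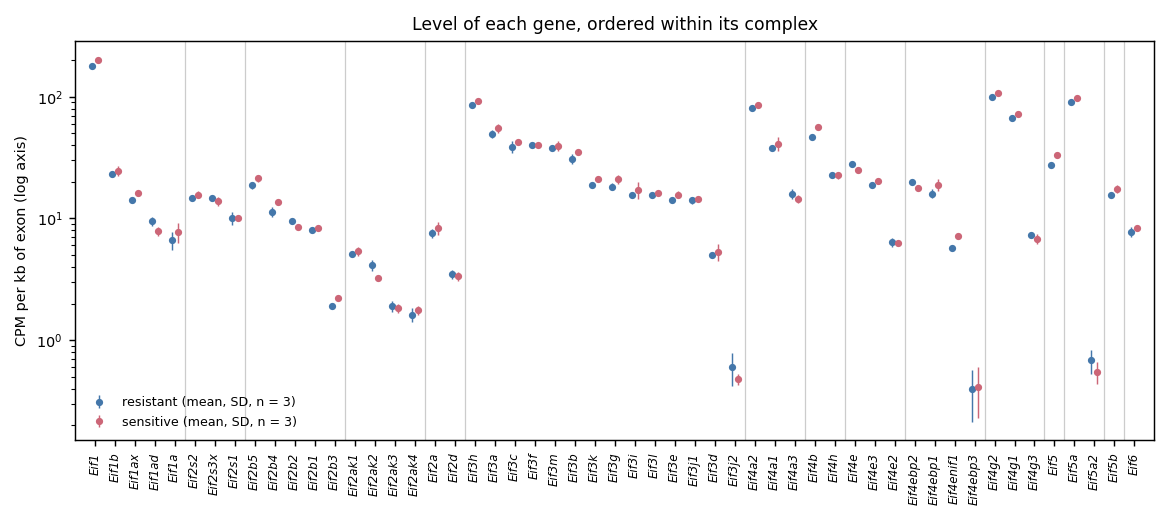
Level of each initiation factor gene in CPM per kb of exon on a log axis, with blue points for resistant and red points for sensitive hearts (mean and SD, n = 3 each). Vertical lines separate the complexes. Eif1 is highest at 189 CPM per kb over all 6 hearts, the kinases of eIF2 lie between 1.69 and 5.23 CPM per kb, and the points of the genotypes lie close together for nearly every gene.

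Between the genotypes, 1 of the 52 tested genes passed the threshold in edgeR, against 1.44% of all tested genes (0.78% higher and 0.659% lower in sensitive hearts). This was Eif4enif1, which rose in sensitive hearts. DESeq2 called 3 genes, Eif4enif1, Eif5 and Eif4b, all higher in sensitive hearts, where it called 3.65% of all genes with an adjusted p. At an unadjusted p under 0.05 in edgeR there were 16 of 52, 12 higher and 4 lower, against 14.5% of all tested genes (7.19% higher and 7.27% lower). Of the 52 genes, 50 had a mean of at least 10 CPM. Among all 8516 tested genes with such a mean, 1557 had an unadjusted p under 0.05, 903 higher and 654 lower. The values of the genotypes did not overlap for 20 of 52 genes, or 38.5%, with 15 higher and 5 lower in sensitive hearts. Over all tested genes the groups did not overlap for 20.0% (9.98% lower in sensitive hearts and the remainder higher), and over tested genes with a mean of at least 10 CPM for 23.7%. Counts within a complex or list below stand against the same shares of all tested genes, 14.5% at an unadjusted p under 0.05 and 20.0% without overlap.

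The fold changes of the family were small and mostly above 0. They were positive for 38 of 52 genes with a median of 0.10, against a median of -0.0078 over all tested genes and 0.022 over those of at least 10 CPM. Of all tested genes 48.4% had positive fold changes, and of those of at least 10 CPM 55.7%. Counts of positive fold changes below stand against these shares. Within the family the largest fold changes were 0.35 for Eif4enif1 and -0.36 for Eif2ak2, and the typical size was 0.14, against a median standard error of 0.082. Their size depended on the scaling. TMM factors were 0.989 to 1.06 in resistant and 0.945 to 0.986 in sensitive hearts, and with library totals alone 31 of 52 fold changes were positive with a median of 0.020. Calls over all genes split into 116 higher and 98 lower with TMM factors and 47 higher and 136 lower with library totals. The median of all tested genes then moved to -0.091, so the distance of the family from all genes was 0.11 on the log2 scale with either scaling. It was 0.055 without sensitive replicate 3 (mouse 381), where 35 of 52 were positive. This heart was the highest of the 6 for 33 of the 52 genes, as the map of levels by heart shows.

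**Figure D2:**
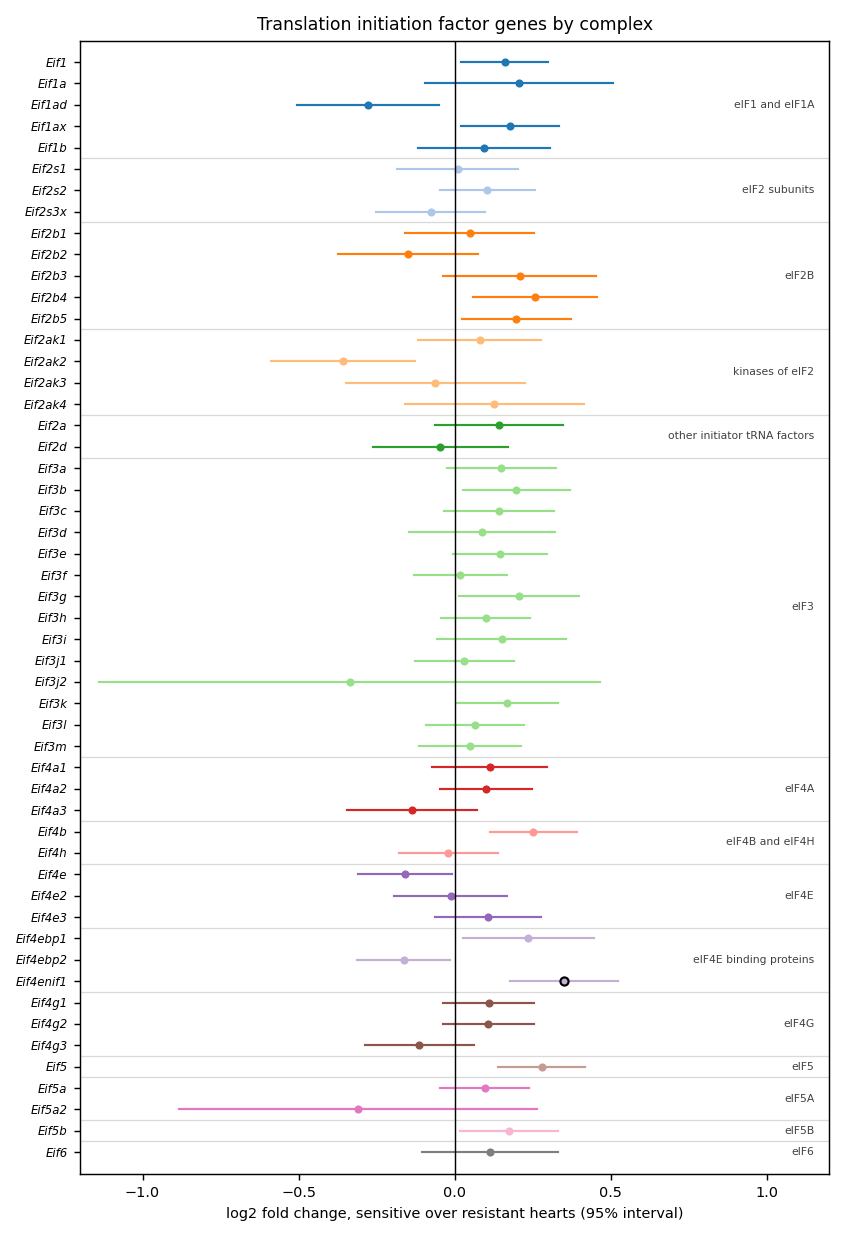
Log2 fold change of each tested initiation factor gene, sensitive over resistant hearts, with its 95% interval from the edgeR fit (n = 3 each), grouped by complex. Colors mark the complexes, and a black outline marks the gene past the threshold. Most points lie to the right of 0, intervals are widest for the low genes Eif3j2 and Eif5a2, and Eif4enif1 at 0.35 lies farthest to the right.

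**Figure D3:**
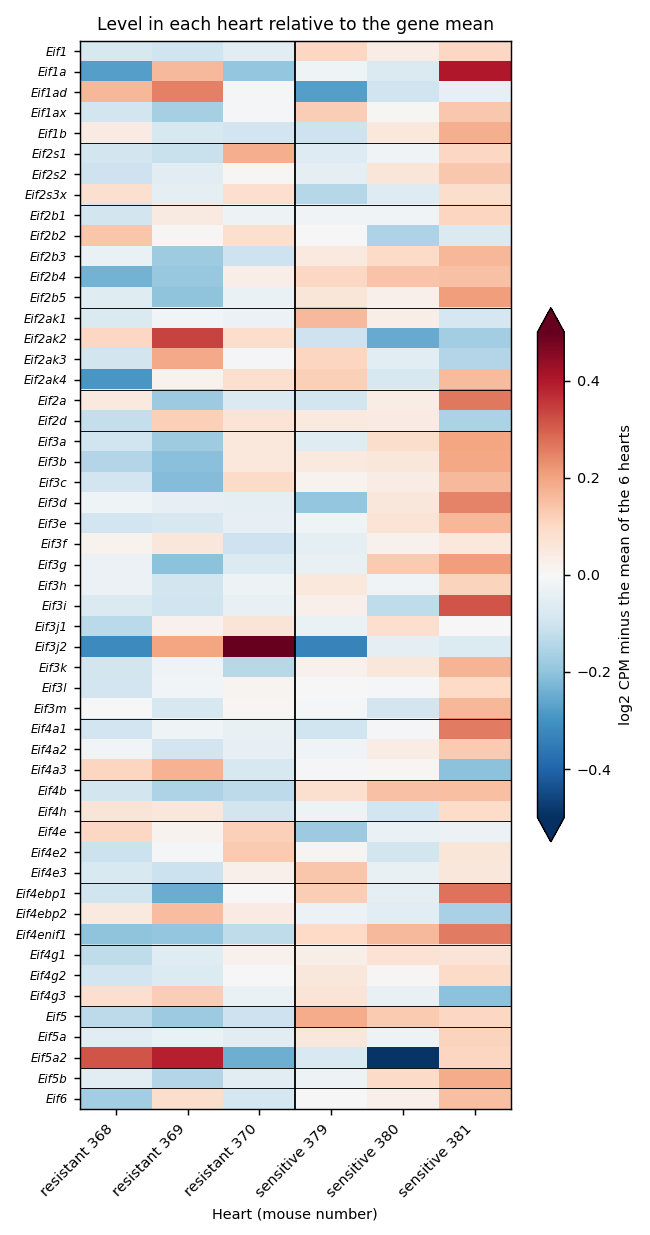
Level of each tested initiation factor gene in each heart as log2 CPM minus the mean of the 6 hearts, with red above and blue below the mean and the color scale ending at 0.5 in either direction. Columns are hearts by mouse number, with resistant replicates 1 to 3 as 368, 369 and 370 and sensitive replicates 1 to 3 as 379, 380 and 381. The column of mouse 381 is red for most genes.

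Eif4enif1 encodes 4E-T, a protein that binds eIF4E, carries it into the nucleus and holds repressed mRNA in P-bodies. Its gene lies on chromosome 11, 3202392 to 3244588, plus strand (mm10). Its level was 35.4, 35.6 and 37.3 CPM in the resistant hearts and 43.6, 45.6 and 48.8 CPM in the sensitive hearts. All sensitive hearts lay above all resistant hearts, and the highest was mouse 381. The means were 36.1 ± 1.07 and 46.0 ± 2.61 CPM (SD, n = 3 each), a difference of 27.4%. The log2 fold change was 0.35 (95% interval 0.18 to 0.52), with an adjusted p of 0.0446 in edgeR and 0.0141 in DESeq2. The call was lost with each of the 6 hearts left out in turn, where the adjusted p in edgeR ran from 0.0687 to 0.171 and the log2 fold change from 0.31 to 0.39. It was also lost with upper-quartile factors and with library totals alone.

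Eif5 encodes the protein that makes eIF2 hydrolyze its GTP once the start codon is found. It lies on chromosome 12, 111538016 to 111546752, plus strand. Its level was 188, 182 and 192 CPM in the resistant hearts and 234, 225 and 221 CPM in the sensitive hearts. Both groups were tight and well apart, with means of 187 ± 4.97 and 227 ± 6.44 CPM (SD, n = 3 each), 21.3% higher in sensitive hearts. The log2 fold change in edgeR was 0.28 with SE 0.066. The adjusted p was 0.0501 in edgeR, just above the threshold, and 0.000841 in DESeq2. Exons of Eif5 also hold the small nucleolar RNA Snora28.

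Eif4b encodes a cofactor that stimulates the eIF4A helicase and is a target of growth signaling kinases. It lies on chromosome 15, 102073773 to 102097173, plus strand. Its level was 215, 207 and 209 CPM in the resistant hearts and 243, 254 and 255 CPM in the sensitive hearts. Again every sensitive heart was above every resistant heart, with means of 210.5 ± 4.49 and 251 ± 6.72 CPM (SD, n = 3 each). The log2 fold change was 0.25 with SE 0.065, and the adjusted p was 0.0743 in edgeR and 0.00276 in DESeq2.

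**Figure D4:**
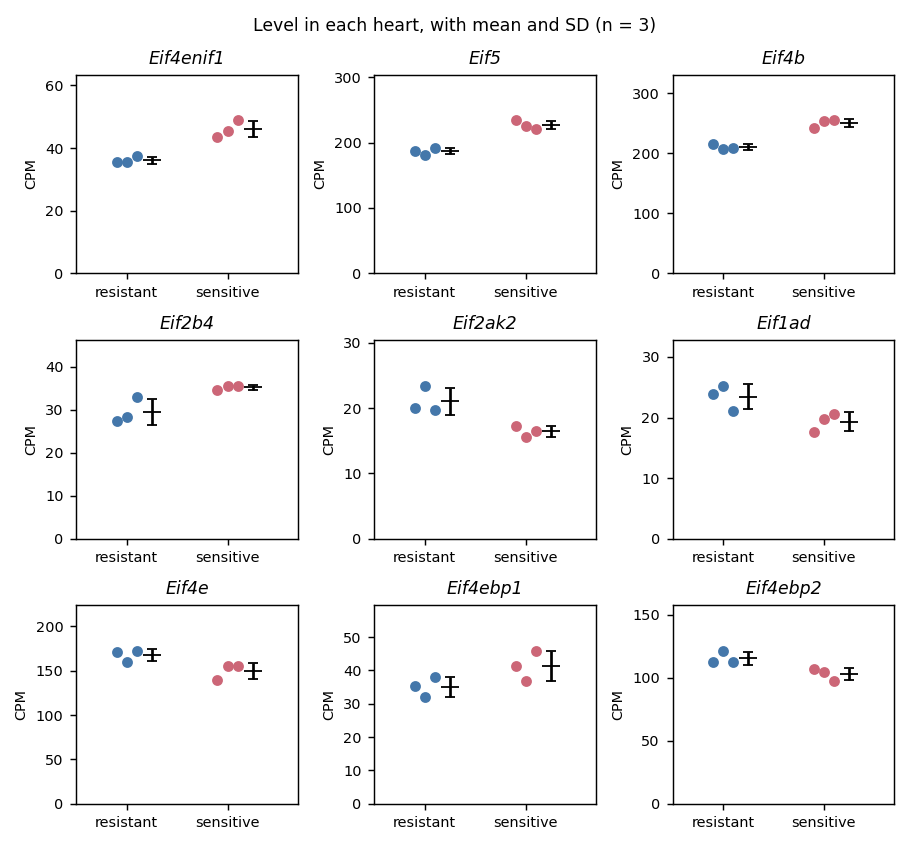
CPM in each heart of 9 initiation factor genes, with blue points for resistant and red points for sensitive hearts, and the mean and SD beside them (n = 3 each). Points run from replicate 1 on the left to replicate 3 on the right. The groups are apart for Eif4enif1, Eif5 and Eif4b, and they overlap for Eif4ebp1.

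The region around the transcription start was read for the 3 genes that any tool called and for Eif2ak2, the gene with the lowest fold change, since motifs there can be set beside the differences in mRNA. Windows of 250 bases before to 50 bases after the start came from RefSeq on GRCm38.p6, where 42 of the 54 genes matched a window. Capitals mark CCAAT, the letters of the CCAAT box, in Eif4enif1 and Eif5. In Eif2ak2 they mark GAAA followed after 2 further bases by GAAA, a core of the interferon-stimulated response element. Eif4b held neither. The windows were chr11:3202103-3202402, plus strand, for Eif4enif1 (the first of 4 listed), chr12:111537851-111538150, plus strand, for Eif5, chr15:102073523-102073822, plus strand, for Eif4b, and chr17:78882523-78882822, minus strand, for Eif2ak2.
Eif4enif1: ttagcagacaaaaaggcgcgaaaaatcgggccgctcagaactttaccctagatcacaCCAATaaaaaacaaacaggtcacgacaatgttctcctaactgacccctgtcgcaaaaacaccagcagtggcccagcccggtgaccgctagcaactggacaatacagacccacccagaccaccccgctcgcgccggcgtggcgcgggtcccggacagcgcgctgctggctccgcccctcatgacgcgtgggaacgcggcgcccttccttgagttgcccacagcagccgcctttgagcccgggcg
Eif5: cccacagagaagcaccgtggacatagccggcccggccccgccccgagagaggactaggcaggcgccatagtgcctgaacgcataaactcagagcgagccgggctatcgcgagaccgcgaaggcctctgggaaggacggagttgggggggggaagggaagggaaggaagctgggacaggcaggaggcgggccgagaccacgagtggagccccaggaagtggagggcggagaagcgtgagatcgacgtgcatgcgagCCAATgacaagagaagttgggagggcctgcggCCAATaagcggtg
Eif4b: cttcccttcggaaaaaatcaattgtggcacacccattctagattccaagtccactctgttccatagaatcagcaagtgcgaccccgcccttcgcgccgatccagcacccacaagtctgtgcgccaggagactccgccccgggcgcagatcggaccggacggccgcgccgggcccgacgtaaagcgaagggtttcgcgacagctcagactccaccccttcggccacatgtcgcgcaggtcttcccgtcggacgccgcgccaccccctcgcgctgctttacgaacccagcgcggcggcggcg
Eif2ak2: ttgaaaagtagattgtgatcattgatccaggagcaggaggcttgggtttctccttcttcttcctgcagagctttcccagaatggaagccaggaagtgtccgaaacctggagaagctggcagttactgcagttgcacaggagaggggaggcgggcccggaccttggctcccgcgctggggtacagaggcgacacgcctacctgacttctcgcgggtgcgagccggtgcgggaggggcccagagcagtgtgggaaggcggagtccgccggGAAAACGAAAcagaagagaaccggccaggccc
The CCAAT match of Eif4enif1 began at base -193, before the RefSeq start. Those of Eif5 at bases 6 and 38 and the match of Eif2ak2 at base 19 began after it. Bases were counted with the RefSeq start as the first base and with no base 0. Searched on both strands, CCAAT was present in 15 of the 42 matched genes (35.7%) and in 41.1% of the 27025 genes with a window. The spaced GAAA pair was present in 4 of 42 (9.52%) against 3.99%, and these were Eif2ak2, Eif2s1, Eif2s3x and Eif3a. The E-box CACGTG, the motif bound by Myc among others, was present in 10 of 42 (23.8%) against 8.09%, and none of the genes called by a tool was among the 10. The cAMP response element TGACGTCA and TGATGNAAT, a form of the C/EBP-ATF element, were in 0 of 42 windows, against 2.03% and 1.08% of all genes. None of these motifs contains another, and a match describes the sequence only.

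Among the factors that set start codon choice, eIF1 and eIF1A, no gene passed the threshold in edgeR or DESeq2, and 3 of 5 had an unadjusted p under 0.05. Summed levels of the 5 genes were 517, 513 and 523 CPM in the resistant hearts and 574, 553 and 590.2 CPM in the sensitive hearts. With TMM factors the sums did not overlap. Eif1 itself gave 374, 369 and 379.9 CPM against 424, 405 and 425 CPM, resistant against sensitive, with every sensitive heart higher (log2 fold change 0.16, SE 0.066, adjusted p = 0.275). Of the eIF1A paralogs, Eif1ax gave 74.6, 71.0 and 79.1 CPM against 86.7, 80.0 and 87.3 CPM without overlap (log2 fold change 0.18, SE 0.073, adjusted p = 0.276). Eif1a, the autosomal copy, overlapped widely, at 16.9, 22.9 and 17.9 CPM against 20.1, 19.4 and 27.0 CPM (log2 fold change 0.21, SE 0.14, adjusted p = 0.540), and its log2 fold change was 0.042 without mouse 381. Its share of the pair, on the per-kb scale, was 31.9% in resistant and 32.2% in sensitive hearts. Eif1ad, which is related to eIF1A by sequence and is not a core initiation factor, was the exception in direction, at 23.8, 25.3 and 21.2 CPM against 17.5, 19.8 and 20.6 CPM (log2 fold change -0.28, SE 0.11, adjusted p = 0.234). Its exons overlap those of Banf1 on the opposite strand over 428 bases, and the strand setting of the counting is not given in the sources used here. Eif1b, a near copy of eIF1, had a log2 fold change of 0.094 and overlapped.

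No difference beyond the spread between hearts was detected for the subunits of eIF2. Eif2s1, the α subunit that the stress kinases phosphorylate, gave 46.6, 46.0 and 56.3 CPM against 47.4, 49.0 and 53.3 CPM, resistant against sensitive (log2 fold change 0.0089, SE 0.091, adjusted p = 0.975). The groups overlapped fully, and the 95% interval of the log2 fold change was -0.19 to 0.20. Eif2s2, the β subunit, had a log2 fold change of 0.10 and Eif2s3x, the X-linked γ subunit, -0.078. Both overlapped, and 0 of the 3 subunits had an unadjusted p under 0.05 in edgeR or a call in DESeq2. Their summed level was 199, 197 and 217 CPM in the resistant hearts and 196, 208 and 224 CPM in the sensitive hearts.

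Genes of eIF2B, the exchange factor that recharges eIF2 with GTP, mostly lay higher in sensitive hearts, although 0 of 5 passed the threshold in edgeR or DESeq2 and 2 of 5 had an unadjusted p under 0.05. Eif2b4, the δ subunit, gave 27.3, 28.2 and 33.0 CPM against 34.6, 35.5 and 35.6 CPM, resistant against sensitive, without overlap (log2 fold change 0.26, SE 0.093, adjusted p = 0.205). Its exons share 204 bases with Snx17 on the opposite strand. Eif2b5, the catalytic ε subunit, gave 49.8, 45.1 and 50.8 CPM against 54.2, 52.9 and 60.1 CPM, also without overlap (log2 fold change 0.20, SE 0.082, adjusted p = 0.279). Eif2b3 lay higher in all sensitive hearts with a log2 fold change of 0.21, and Eif2b2 lay lower in all of them with -0.15. Eif2b1 overlapped, at a log2 fold change of 0.048. The summed level of the 5 genes was 129, 124 and 135 CPM in the resistant hearts and 141, 139 and 149.8 CPM in the sensitive hearts, which did not overlap.

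The 4 kinases of eIF2 each sense a different stress, and 0 of 4 passed the threshold in edgeR or DESeq2. Eif2ak2 encodes PKR, which senses double-stranded RNA and is induced by interferon, and it lies on chromosome 17, 78852564 to 78882573, minus strand. It gave 20.0, 23.5 and 19.7 CPM in the resistant hearts and 17.3, 15.6 and 16.4 CPM in the sensitive hearts. Every sensitive heart was lower, and the resistant heart farthest from the others was replicate 2, the highest. The means were 21.1 ± 2.08 and 16.4 ± 0.853 CPM (SD, n = 3 each), with log2 fold change -0.36, SE 0.11, adjusted p = 0.129 in edgeR and an adjusted p of 0.147 in DESeq2. The other kinases overlapped between the genotypes. Eif2ak1, the heme-regulated kinase, had a log2 fold change of 0.080, Eif2ak3, the endoplasmic reticulum kinase PERK, -0.062, and Eif2ak4, the amino acid sensor GCN2, 0.13. Their 95% intervals were -0.12 to 0.28, -0.35 to 0.22 and -0.16 to 0.41 in that order. Eif2a and Eif2d, which can deliver initiator tRNA without eIF2, had log2 fold changes of 0.14 and -0.046 and overlapped. That of Eif2a was 0.040 without mouse 381.

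The eIF3 genes encode the largest initiation factor, a scaffold on the small ribosomal subunit, and 13 of 14 had positive fold changes with a median of 0.12. None passed the threshold in edgeR or DESeq2, 3 of 14 had an unadjusted p under 0.05, and the groups were apart for 3 (21.4%, near the 20.0% of all tested genes), which were Eif3e, Eif3h and Eif3k. The summed level was 1239, 1212 and 1310 CPM in the resistant hearts and 1293, 1333 and 1452 CPM in the sensitive hearts. These sums overlapped, and mouse 381 stood highest. Eif3b, a core subunit that organizes the complex, gave 99.9, 95.5 and 115 CPM against 114, 115 and 126 CPM, resistant against sensitive, with resistant replicate 3 within the sensitive range (log2 fold change 0.20, SE 0.080, adjusted p = 0.269). Eif3h, the member with the highest level per kb, gave 139.9, 134 and 140.3 CPM against 148, 141 and 154 CPM (log2 fold change 0.099, SE 0.067, adjusted p = 0.536). Eif3a, the largest subunit, had a log2 fold change of 0.15 and Eif3c 0.14, both with overlap. Among further subunits, Eif3g gave 0.21 and Eif3k 0.17 on the log2 scale, and Eif3f and Eif3m 0.018 and 0.049. The eIF3j paralogs cannot be told apart well in these counts. Of the 50-base stretches of Eif3j2 exons, 91.8% also occur elsewhere, chiefly in Eif3j1, and 36.9% of those of Eif3j1 do. Eif3j1 gave 75.5, 84.3 and 86.7 CPM against 81.0, 88.0 and 82.9 CPM and Eif3j2 1.003, 1.43 and 1.86 CPM against 0.993, 1.21 and 1.19 CPM, with log2 fold changes of 0.031 and -0.34 that are uncertain for this reason.

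Cap-binding genes lay in both directions. Eif4e, the cap-binding protein, gave 171, 160.5 and 173 CPM in the resistant hearts and 139.8, 155 and 156 CPM in the sensitive hearts. Every sensitive heart was lower, though it did not pass the threshold (log2 fold change -0.16, SE 0.071, adjusted p = 0.315). Eif4e3, a relative that binds the cap differently, had a log2 fold change of 0.11, and Eif4e2, the repressive cap-binding protein 4EHP, -0.013, both with overlap. As a percentage of the summed level of these 3 genes on the per-kb scale, Eif4e made up 53.7, 52.2 and 51.7 in the resistant hearts and 45.4, 50.8 and 48.9 in the sensitive hearts, without overlap.

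The binding proteins of eIF4E differed in direction, too. Eif4ebp1 encodes the best known 4E-BP, an mTORC1 substrate. It gave 35.5, 32.0 and 37.9 CPM in the resistant hearts and 41.4, 36.8 and 45.9 CPM in the sensitive hearts. Mouse 380, the lowest sensitive heart, lay within the resistant range (log2 fold change 0.24, SE 0.098, adjusted p = 0.284), and without mouse 381 the log2 fold change was 0.15. Eif4ebp2, its paralog, gave 113, 121 and 112 CPM in the resistant hearts and 107, 105 and 97.4 CPM in the sensitive hearts. Here every sensitive heart was lower (log2 fold change -0.16, SE 0.070, adjusted p = 0.296). Per unit of Eif4e on the per-kb scale, Eif4ebp1 mRNA was 0.569, 0.546 and 0.602 in the resistant hearts and 0.809, 0.648 and 0.807 in the sensitive hearts, without overlap. The same ratio for Eif4ebp2 was 0.685, 0.785 and 0.675 in the resistant hearts and 0.793, 0.702 and 0.650 in the sensitive hearts, with full overlap. For the sum of both genes it was 1.25, 1.33 and 1.28 in the resistant hearts and 1.60, 1.35 and 1.46 in the sensitive hearts, without overlap but with mouse 380 close to resistant replicate 2. The ratios were set up after the direction of the genes was known and are given as a description with no test. They concern mRNA, and phosphorylation of the proteins was not measured here.

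**Figure D5:**
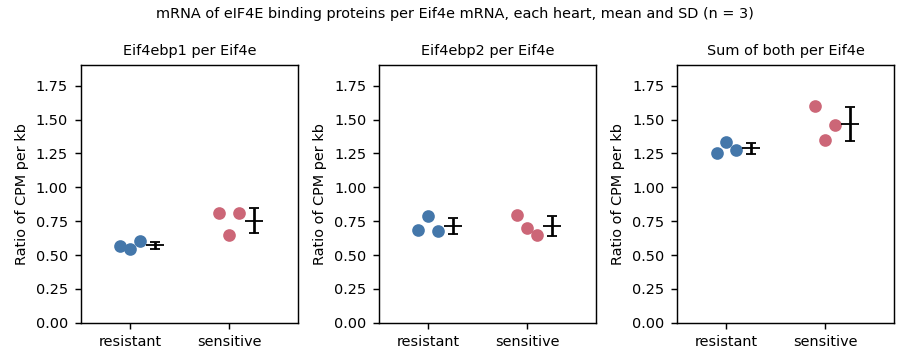
Ratio of CPM per kb of Eif4ebp1, of Eif4ebp2 and of their sum to that of Eif4e in each heart, with blue points for resistant and red points for sensitive hearts and the mean and SD beside them (n = 3 each). Points run from replicate 1 to replicate 3. Eif4ebp1 per Eif4e is apart between the genotypes at 0.572 against 0.755, and Eif4ebp2 per Eif4e overlaps at 0.715 against 0.715.

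The eIF4G scaffolds had a summed level of 1536, 1579 and 1648 CPM in the resistant hearts and 1698, 1670.3 and 1727 CPM in the sensitive hearts. With TMM factors the sums did not overlap, but none of the 3 genes had an unadjusted p under 0.05 in edgeR or a call in DESeq2. Eif4g2, which lacks the eIF4E site and serves cap-independent initiation, gave 988, 1007 and 1057 CPM against 1099, 1061 and 1128 CPM, resistant against sensitive (log2 fold change 0.11, SE 0.068, adjusted p = 0.503). Eif4g1, the main scaffold, gave 465, 487 and 515 CPM against 517, 533 and 531 CPM (log2 fold change 0.11, SE 0.069, adjusted p = 0.498). Both were apart, and Eif4g3 overlapped with a log2 fold change of -0.11, or -0.043 without mouse 381. The helicase genes of eIF4A overlapped throughout. Eif4a2, which had the higher level per kb in these hearts, gave 438, 415 and 430.3 CPM against 438, 455 and 485 CPM (log2 fold change 0.10, SE 0.069, adjusted p = 0.538), and Eif4a1 had a log2 fold change of 0.11, which was 0.00063 without mouse 381. The share of Eif4a1 in the pair on the per-kb scale was 32.2% ± 1.16 and 32.3% ± 1.73 (SD, n = 3 each). Of the 50-base stretches of Eif4a1, 28.4% occur elsewhere in the transcripts. Eif4a3, a subunit of the exon junction complex, had a log2 fold change of -0.14, or -0.068 without mouse 381. Eif4h, the smaller relative of Eif4b, gave 132, 131 and 118 CPM against 124, 118 and 134 CPM and overlapped (log2 fold change -0.020, SE 0.075, adjusted p = 0.933), unlike Eif4b, although the difference between these genes was not tested.

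Of the late factors, none passed the threshold in edgeR or DESeq2 apart from Eif5 in DESeq2. Eif5b, the GTPase of subunit joining, gave 154, 145 and 155 CPM against 158, 172 and 183 CPM, resistant against sensitive, without overlap (log2 fold change 0.17, SE 0.073, adjusted p = 0.286). Its exons share 1643 bases with Rev1 on the opposite strand. Eif5a, the hypusine-bearing factor that helps ribosomes past slow stretches, gave 216, 219 and 216 CPM against 233, 220.3 and 242 CPM, apart by a small margin (log2 fold change 0.096, SE 0.067, adjusted p = 0.546). Its paralog Eif5a2 was near the filter at 3.77, 3.96 and 2.56 CPM against 2.88, 2.16 and 3.27 CPM, with a 95% interval of -0.88 to 0.26 for the log2 fold change. Eif6, which keeps free large subunits from joining early, gave 19.2, 23.0 and 20.4 CPM against 21.6, 22.0 and 24.1 CPM and overlapped (log2 fold change 0.11, SE 0.10, adjusted p = 0.663).

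Genes that work with the initiation factors were followed in 6 lists, of which 106 different genes were tested. None passed the threshold in edgeR, 19 had an unadjusted p under 0.05 with 16 higher and 3 lower, against 14.5% of all tested genes, and DESeq2 called 2, Vldlr and Mknk2, against 3.65%. Over all tested genes the unadjusted p-values under 0.05 split nearly evenly, at 7.19% higher and 7.27% lower. Among the 8516 tested genes with a mean of at least 10 CPM the split was uneven, with 903 higher and 654 lower. Fold changes were positive for 67 of 106 with a median of 0.050. With library totals alone 40 of 106 were positive with a median of -0.032, where the median of all tested genes was -0.091. Without sensitive replicate 3 (mouse 381), 59 of 106 were positive with a median of 0.034. Of 15 elongation and termination factors, 2 had an unadjusted p under 0.05. The smallest p-values there were those of the elongation factors Eef1d, Eef1a2 and Eef2. Their log2 fold changes were 0.20, 0.16 and 0.14, with adjusted p = 0.194, 0.313 and 0.360 in edgeR. Of 23 partners of the cap, the poly(A) tail and eIF4F, 6 had an unadjusted p under 0.05. Mknk2, a kinase that phosphorylates eIF4E, gave 172, 181 and 200.4 CPM against 203, 219.7 and 239 CPM, resistant against sensitive (log2 fold change 0.26, SE 0.080, adjusted p = 0.141 in edgeR and 0.0371 in DESeq2). Pabpn1, the nuclear poly(A)-binding protein, and Ddx3x, an RNA helicase, had log2 fold changes of 0.37 and 0.21, with adjusted p = 0.168 and 0.185. All 3 were apart and higher in sensitive hearts.

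Of 24 genes of the mTORC1 pathway, 5 had an unadjusted p under 0.05, against 14.5% of all tested genes, and 0 passed the threshold in edgeR or DESeq2. Akt1s1, an inhibitory subunit of mTORC1, gave 38.9, 39.5 and 34.1 CPM against 44.8, 42.4 and 49.1 CPM, resistant against sensitive (log2 fold change 0.28, SE 0.089, adjusted p = 0.153). Rptor, the subunit that binds substrates such as the 4E-BP proteins, gave 45.1, 47.8 and 51.7 CPM against 43.4, 39.6 and 39.3 CPM (log2 fold change -0.24, SE 0.083, adjusted p = 0.183). The groups were apart for both, in opposite directions. Ddit4, a stress-induced inhibitor of mTORC1, was more variable at 15.8, 38.4 and 32.6 CPM against 36.6, 40.4 and 64.0 CPM and overlapped (log2 fold change 0.70, SE 0.25, adjusted p = 0.191). Among 16 tested transcripts known to be raised when eIF2 is phosphorylated, 7 had positive fold changes and 3 an unadjusted p under 0.05. Vldlr, a lipoprotein receptor, gave 561, 525 and 588 CPM against 634, 700.4 and 715 CPM without overlap (log2 fold change 0.29, SE 0.075, adjusted p = 0.0704 in edgeR and 0.00125 in DESeq2). Cebpb, a transcription factor of stress responses, gave 19.2, 33.6 and 27.2 CPM against 36.2, 36.8 and 50.4 CPM, also without overlap (log2 fold change 0.62, SE 0.17, adjusted p = 0.0828 in edgeR and 0.233 in DESeq2). Phgdh, an enzyme of serine synthesis, was near the filter at 0.716, 1.003 and 1.16 CPM against 1.29, 2.10 and 1.82 CPM. Of 19 genes of ribosome recycling and eIF2 partners, 1 had an unadjusted p under 0.05, Ppp1ca, a phosphatase catalytic subunit (log2 fold change 0.20, adjusted p = 0.216). Ppp1cc, its relative, and Cdc123, which assembles eIF2, had log2 fold changes of 0.14 and 0.18. Of 10 mitochondrial translation factors, 2 had an unadjusted p under 0.05, with Mtif2, an initiation factor, lower at a log2 fold change of -0.19 and Mrrf, a recycling factor, higher at 0.18, while Tufm, an elongation factor, had 0.088.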

How the data were processed

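The authors deposited raw read counts per gene for 6 hearts, 1 library each, together with gene symbol, coordinates, exon length and biotype. The submitters' processing notes name fastp, STAR, featureCounts and mm10, and versions, annotation release and strand setting are not given in the sources used here. A second deposited table holds the authors' DESeq2 comparison of the genotypes (fold changes and p-values) and was not used. Groups came from the genotype labels, and mouse numbers only name the hearts.

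Counts were tested across all genes with edgeR 4.0.16 in R 4.3.3 (TMM factors, filterByExpr with a minimum count of 10 and a total of 15, glmQLFit and glmQLFTest with no covariate, Benjamini-Hochberg adjustment). Standard errors were derived from the log2 fold change and its F statistic, and intervals are 95%. The biological coefficient of variation was 11.1%. DESeq2 1.42.0 on the same counts, other scaling factors, filters, a robust prior, removal of globin and mitochondrially encoded genes, a threshold of 0.1 and leaving out each heart were tried as alternatives, and library totals without TMM factors were added after seeing the data. The fitting code was tested on simulated data. Depth was 19309312 to 20470065 counts, where 3 counts correspond to about 0.14 to 0.16 CPM, and such floors cover counting error only. Hearts of the same group differed by more than counting noise (chi-square per gene 6.85 to 13.1), and each was counted as its own replicate.

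The members and lists were chosen with earlier results of these data known. Genes named are those past the threshold in either tool, the 10 with the smallest p, the highest and lowest per complex, paralog families, genes removed by the filter and the 3 smallest p-values per list, and a few more eIF3, eIF2, eIF2B and eIF4E genes were named after their values were seen. Promoter windows came from RefSeq on GRCm38.p6, and shared 50-base stretches and exon overlaps from GENCODE M21, which held all 54 genes, 51 of them at the coordinates of the count table.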

Additional observations from a re-analysis of the deposited data

How the results depend on the processing

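Eif4enif1 was the only initiation factor gene past the threshold in edgeR. The number past it was 2 with RLE factors, with at least 10 counts in every heart, with a robust prior and without globin and mitochondrially encoded genes, Eif5 being the addition each time. It was 3 without the filter, in DESeq2 and at a threshold of 0.1, and 0 with upper-quartile factors, with library totals alone and in all 6 fits that left out a heart (0 to 0). In those 3 kinds of fit, 14, 7 and 6 to 17 of the genes had an unadjusted p under 0.05. Over all genes the 214 calls became 618 without the filter, 403 in DESeq2, 402 at the threshold of 0.1 and 80 to 158 with a heart left out. With library totals alone, 47 genes were higher and 136 lower, against 116 and 98. The 0 calls in the pathway lists became 6 without the filter, 2 in DESeq2, 1 with a robust prior, 2 at the threshold of 0.1 and 0 to 1 with a heart left out. Of 837 repeats over 56 named genes, 793 kept their direction and side of the threshold, 20 passed it newly, 8 lost it and 16 changed sign, all of these at log2 fold changes near 0. Eif2s1 was -0.0036 with upper-quartile factors and -0.072 with library totals, where Eif2ak1 was -0.0020 and Eif3j1 -0.051. With a heart left out, log2 fold changes ran from -0.13 to 0.025 for Eif2ak3, -0.11 to 0.020 for Eif2d, -0.040 to 0.11 for Eif2s1, -0.023 to 0.076 for Eif3j1, -0.066 to 0.057 for Eif4e2 and -0.072 to 0.027 for Eif4h. The cause was not tested. No paired analysis was possible because the labels give the genotypes no shared replicate numbers. The median standard error of 0.082 over the 52 genes, from 3 hearts per genotype, limits what could be detected, since the typical log2 fold change was 0.14.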

Other observations

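Eif2s3y, the Y-linked copy of the eIF2 γ subunit, lies outside the rule and gave 72.6, 72.1 and 71.5 CPM in the resistant hearts and 68.4, 76.8 and 76.3 CPM in the sensitive hearts, with overlap. Together with Eif2s3x it summed to 130.2, 125 and 129 in the resistant hearts and 118, 129 and 134 in the sensitive hearts, in CPM. Eif4a-ps4, a processed pseudogene outside the rule, had 23 to 33 counts per heart, at 1.38, 1.15 and 1.16 CPM in the resistant hearts and 1.64, 1.74 and 1.504 CPM in the sensitive hearts, with every sensitive heart higher.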
